A study of Caenorhabditis elegans with 16 samples.

Results

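The translation machinery was followed here through 68 genes of Caenorhabditis elegans, 36 translation factors and 32 aminoacyl-tRNA synthetases, of 19974 named genes in the tables. The factors were all genes whose names begin with eif, eef, ife or ifg, and the synthetases were all genes named with an amino acid letter followed by "ars" and a number. All 68 were present in every table. The rule used names only and no measured value, though it was set with earlier results of these data known.

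RNA polymerase occupancy was mapped by RAPID, in which the Dam methylase of a bacterium is fused to RPB-6, a subunit shared by RNA polymerases I, II and III, and marks GATC sites near the enzyme with adenine methylation. The same methylase fused to GFP (GFP::Dam) gave the background of accessible chromatin. Wild type animals (WT) were compared with baf-1(G12T), which carry a glycine to threonine change in BAF-1, a DNA-binding protein of the nuclear envelope, as allele bq19 in the endogenous gene. Each genotype was profiled in the hypodermis (FLP recombinase driven by the dpy-7 promoter, transgene bqSi548) and in the intestine (FLP driven by the nhx-2 promoter, transgene bqSi997).

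In all 8 strains the Dam fusion sat as a single copy on chromosome II, as bqSi1411 for Dam::RPB-6 or bqSi447 for GFP::Dam, behind the heat-shock promoter hsp16.41, where it stayed silent until FLP had removed a cassette that encodes a red histone, mCh::his-58. WT therefore means animals that carry these same transgenes with an unchanged baf-1. Each combination was carried by a single strain, from which pools of 4000 L4 larvae were collected after 48 h at 20 °C. There were 16 libraries, 2 for each combination of genotype, tissue and fusion. The deposited tables hold 1 score and 1 FDR per gene for each tissue of each genotype, 4 tables in all. The values below therefore have no replicate spread, and no difference between tables could be tested. The tables do not hold read depth, which was not used here, and how the replicates were combined is not stated.

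Translation begins when initiation factors bring the small ribosomal subunit, the initiator tRNA and the capped end of the mRNA together. In this process eIF4E binds the cap, eIF4G is the scaffold that joins it to the ribosome, eIF3 is the large multi-subunit complex on the small subunit, eIF2 delivers the initiator tRNA, and eIF2B recharges eIF2 with GTP. Elongation factors then bring charged tRNAs to the ribosome (eEF1A, recycled by the eEF1B subunits) and move the ribosome along (eEF2). Aminoacyl-tRNA synthetases charge each tRNA with its amino acid and fall into 2 structural classes, with separate sets of activities in the cytosol and in mitochondria. Translation takes place in every growing cell, and the larval hypodermis and intestine are both growing tissues. It does not follow that each gene of the set is used in both tissues.

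The score of a gene is log2(Dam::RPB-6 / GFP::Dam) averaged over the GATC fragments of the gene, so it is an average and not a sum over gene length. A score of 0 means as much signal from the polymerase fusion as from GFP::Dam after normalization, so its place depends on how each table was normalized. Below background is used here for a score under 0. A gene is called expressed where the deposited FDR is under 0.05. The score averages over all cells of a tissue, so fewer occupied cells and less polymerase per cell cannot be told apart, and because RPB-6 is shared the score does not separate the polymerases. The tissue labels were compared with 16 marker genes each. In WT, 13 of the 16 hypodermal markers scored higher in hypodermis and 11 of the 16 intestinal markers had their higher score in intestine, and in baf-1(G12T) both counts were 14 of 16. Of all named genes, 64.1% in WT and 56.3% in baf-1(G12T) scored higher in hypodermis. Among the defining markers, the collagen gene dpy-7, the intestinal GATA factor gene elt-2 and the esterase gene ges-1 were called in none of the 4 tables. Markers were also called outside their tissue. Hypodermal markers had 4 calls in WT and 1 in baf-1(G12T) intestine, and intestinal ones 0 in WT and 1 in baf-1(G12T) hypodermis. Of 11 markers of other tissues, 2, 1, 1 and 3 were called in WT hypodermis, baf-1(G12T) hypodermis, WT intestine and baf-1(G12T) intestine. The neuronal unc-104 was called in all 4. In the matching tissue, the number of hypodermal markers called was 12 in WT and 7 in baf-1(G12T) hypodermis. For intestinal markers it was 6 in WT and 11 in baf-1(G12T) intestine. The part of these marker shifts in the differences between genotypes below was not tested.

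The highest scores of the set belonged to the eEF1A genes, eef-1A.1 and eef-1A.2, which encode the factor that carries charged tRNAs to the ribosome. Their coding sequences are both 1389 bases long and identical at 1305 positions (94.0%), so it matters whether a sequenced fragment can be given to the right gene. The annotation (WBcel235) puts 9 GATC sites in each coding sequence, and 7 of these lie at the same coding position. In the spliced coding sequences, none of the 14 stretches of 40 bases that begin or end at these 7 sites was identical between the genes. They differed by 1 to 4 bases. In the genome, with introns included, none of the 18 fragment ends of eef-1A.1 or the 20 of eef-1A.2 had an exact copy elsewhere. The windows below show coding bases 488 to 587 of both genes, each within 1 exon, with the 2 GATC sites in capitals. The windows differ at 6 of 100 bases. The first lies at chrIII:6970993-6971092 on the minus strand and the second at chrX:7824314-7824413 on the plus strand.
eef-1A.1: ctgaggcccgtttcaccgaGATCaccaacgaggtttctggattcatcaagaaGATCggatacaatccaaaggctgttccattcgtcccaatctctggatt
eef-1A.2: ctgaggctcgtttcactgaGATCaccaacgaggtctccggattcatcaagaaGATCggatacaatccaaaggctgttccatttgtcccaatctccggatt

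Fragment ends were also compared with the rest of the genome for all 68 genes. DamID does not record the strand, and 25 of the 68 genes overlap at least 1 other tabled gene, and some of these partners are named below with their scores. For 58 genes no end of 40 bases had an exact copy elsewhere. The gene most affected was eif-3.L, which encodes an eIF3 subunit and in which 14 of 32 ends, at 7 of its 16 GATC sites, had an exact copy in the tabled gene F59E12.6, 4234 bases away. The stretch shown here, 76 bases at chrII:5621566-5621641 with its GATC site in capitals, occurs letter for letter at chrII:5630028-5630103 in F59E12.6 (both written on the plus strand). It is printed because reads from such ends cannot be placed by their first 40 bases.
eif-3.L: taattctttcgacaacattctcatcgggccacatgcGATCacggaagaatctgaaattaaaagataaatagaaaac

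The bases just before the annotated gene starts were read from the same genome. In many worm genes the start is where a spliced leader is joined to the transcript, at an acceptor that ends in TTTCAG. The 60 bases before the start ended in TTTCAG for 23 of the 68 genes (33.8%; 14 factors and 9 synthetases), against 12.3% of 19406 protein-coding genes in the tables with a position. It was searched on the strand of the gene only and at that one place. Windows are shown for some of the genes named below, with TTTCAG in capitals. Other genes whose occupancy stands out, such as eef-2, eif-6 and nars-1, are not shown. A link between TTTCAG and occupancy was not tested. They lie at chrIII:6971713-6971772 (minus), chrX:7823594-7823653 (plus), chrIV:4810874-4810933 (plus), chrII:7072416-7072475 (minus) and chrIV:390469-390528 (minus), in the order of the lines.
eef-1A.1: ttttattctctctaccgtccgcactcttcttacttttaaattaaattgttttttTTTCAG
eef-1A.2: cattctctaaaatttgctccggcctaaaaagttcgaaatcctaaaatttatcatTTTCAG
eif-1.A: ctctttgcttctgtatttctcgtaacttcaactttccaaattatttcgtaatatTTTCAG
kars-1: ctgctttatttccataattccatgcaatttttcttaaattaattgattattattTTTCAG
ears-2: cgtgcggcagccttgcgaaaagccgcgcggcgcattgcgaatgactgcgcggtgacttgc

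The last of these, ears-2, has no TTTCAG at its start. Absence of these letters at this place says nothing of how the transcript is made.

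The first question was which of these genes carried polymerase above background in each tissue. In WT hypodermis 10 of the 36 factors and 3 of the 32 synthetases were called expressed, where 9.81% of all named genes were called. In baf-1(G12T) hypodermis 6 factors and 3 synthetases were called, against 7.53% of all genes. In WT intestine 9 factors and 5 synthetases were called, against 7.94%, and in baf-1(G12T) intestine 11 factors and 8 synthetases, against 10.5%. Factors were thus called at 16.7% to 30.6%, above the share of all genes in each of the 4 tables, while synthetases were near it in hypodermis (9.38% in both genotypes) and above it in intestine (15.6% and 25%). The factor calls included 4 of the 6 elongation genes (66.7%) in every table. In baf-1(G12T) hypodermis the only other factors called were eif-2Bdelta and eif-3.H, so the factor share there rests mainly on elongation genes. The shares of factors and synthetases are not matched for the number of GATC fragments per gene, by which calls are given further below.

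Most members nevertheless scored near 0 in every table. The median score of the factors was between -0.086 and -0.0038 in the 4 tables and that of the synthetases between -0.13 and -0.02, beside -0.07 to -0.02 for all named genes. No call was made in any table for 18 factors (50%) and 17 synthetases (53.1%), beside 76.1% of all named genes. A call in all 4 tables was made for 3 factors and no synthetase, a pattern held by 188 of all named genes (0.941%). For the next counts the genotypes were pooled, so that a tissue counted as called where either genotype had a call. The 9 members called in both tissues (13.2%, against 4.92% of all named genes) comprised 8 factors and 1 synthetase, sars-1. Of these, eif-2Balpha and eif-3.K were called in WT hypodermis and baf-1(G12T) intestine, and so not in both tissues of the same genotype. Another 9 members were called only in hypodermis (4 factors, 5 synthetases), which is 13.2% against 8.90% of all genes. Calls only in intestine were made for 15 members (6 factors, 9 synthetases), which is 22.1% against 10.1%.

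**Figure D1:**
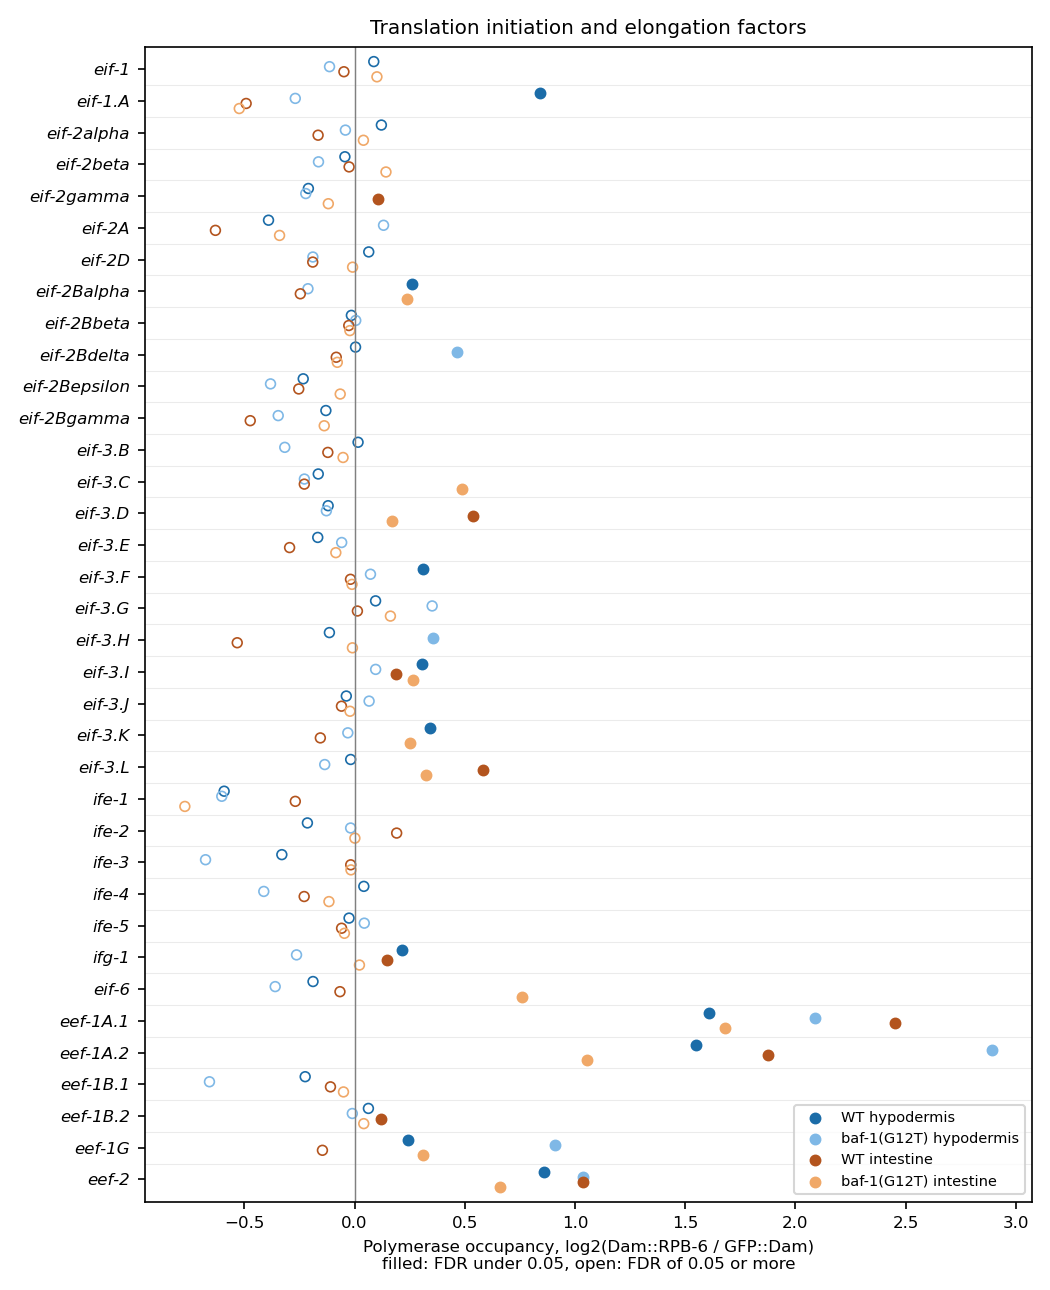
Polymerase occupancy of the 36 translation factors in the 4 tables, as log2(Dam::RPB-6 / GFP::Dam) on the horizontal axis, 1 point per table (dark and light blue, WT and baf-1(G12T) hypodermis; dark and light orange, WT and baf-1(G12T) intestine). Filled points have an FDR under 0.05. eef-1A.1, eef-1A.2 and eef-2 are filled in all 4 tables, and the 5 ife genes in none.

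Elongation factors held the highest occupancy. eef-1A.1 (chrIII:6970026-6971712, minus strand) scored 1.61 in WT hypodermis, 2.09 in baf-1(G12T) hypodermis, 2.45 in WT intestine and 1.68 in baf-1(G12T) intestine. It was highest in WT intestine, where it ranked 7 among all 19974 named genes, and it ranked 19, 51 and 5 in WT hypodermis, baf-1(G12T) hypodermis and baf-1(G12T) intestine. eef-1A.2 (chrX:7823654-7825769, plus strand) scored 1.55, 2.89, 1.88 and 1.05 in the same order of tables, with ranks of 28, 12, 31 and 53. The eEF1A genes were thus close to each other in WT hypodermis, while eef-1A.1 was 0.57 to 0.63 log2 units above eef-1A.2 in both intestinal tables and 0.80 below it in baf-1(G12T) hypodermis. eef-2, the translocase eEF2, scored 0.86, 1.04, 1.04 and 0.66 and ranked between 136 and 286.

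The remaining elongation genes encode subunits of eEF1B, which reloads eEF1A with GTP, and they scored below eef-2 in all 4 tables. eef-1G, the gamma subunit, scored 0.24 in WT hypodermis, 0.91 in baf-1(G12T) hypodermis, -0.15 in WT intestine and 0.31 in baf-1(G12T) intestine, and was called in all but WT intestine. eef-1B.2 was called in WT intestine only, at 0.12. eef-1B.1 was called nowhere and lay between -0.66 and -0.05. Members of a single recycling complex therefore differed by up to 1.57 log2 units within 1 table.

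Among the initiation factors that act on the scanning ribosome, eif-1.A (eIF1A; chrIV:4810934-4811983, plus strand) stood at 0.84 in WT hypodermis and was called there. It was below background in baf-1(G12T) hypodermis (-0.27), WT intestine (-0.49) and baf-1(G12T) intestine (-0.52). Its partner eif-1 (eIF1) lay between -0.11 and 0.10 in all 4 tables and was never called. Over 54.2% of its length eif-1 overlaps the same-strand gene pigb-1.

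The eIF2 subunits were close to background. Their scores lay between -0.22 and 0.14, and the one call was eif-2gamma in WT intestine at 0.11. The genes for the alternative tRNA-delivery factors eif-2A and eif-2D were not called. Of the 5 eIF2B subunits, eif-2Balpha, a regulatory subunit, was called in WT hypodermis (0.26) and baf-1(G12T) intestine (0.24) and was negative in the other tables (-0.21 and -0.25). eif-2Bdelta was called in baf-1(G12T) hypodermis only, at 0.46. In that table C50F4.8, which overlaps its end on the other strand, was also called, at 1.26. The beta, gamma and epsilon subunits were called nowhere.

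The 11 genes for eIF3 subunits did not share a pattern. eif-3.D and eif-3.L were called in intestine of both genotypes and in neither hypodermal table. eif-3.D scored 0.54 in WT and 0.17 in baf-1(G12T) intestine, against -0.12 and -0.13 in hypodermis. eif-3.L scored 0.58 and 0.32 in intestine, against -0.02 and -0.14 in hypodermis. F59E12.6, which shares fragment ends with eif-3.L, scored 0.10 in WT and 0.03 in baf-1(G12T) intestine and 0.06 and 0.42 in WT and baf-1(G12T) hypodermis. It was called in WT intestine and in baf-1(G12T) hypodermis. The part of the shared ends in the score of eif-3.L was not tested.

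eif-3.I was called in 3 tables, at 0.30 in WT hypodermis, 0.19 in WT intestine and 0.26 in baf-1(G12T) intestine, and scored 0.10 in baf-1(G12T) hypodermis. eif-3.K was called in WT hypodermis (0.34) and baf-1(G12T) intestine (0.25), the same pair of tables as eif-2Balpha. eif-3.C was called in baf-1(G12T) intestine only (0.49, beside -0.23 to -0.16 in the other tables), eif-3.F in WT hypodermis only (0.31) and eif-3.H in baf-1(G12T) hypodermis only (0.35), where cps-6, which overlaps its end on the other strand, was called at 0.77. eif-3.B, eif-3.E, eif-3.G and eif-3.J were called nowhere. In baf-1(G12T) intestine 5 of the 11 were called (45.5%, beside 10.5% of all named genes), the largest number for eIF3 in any of the 4 tables.

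None of the 5 genes for the cap-binding protein eIF4E (ife-1 to ife-5) was called in any table. ife-1 scored -0.59, -0.60, -0.27 and -0.77, and ife-3 scored -0.33, -0.68, -0.02 and -0.02, in the order WT hypodermis, baf-1(G12T) hypodermis, WT intestine, baf-1(G12T) intestine. ife-2 came nearest to a call, at 0.19 in WT intestine with an FDR of 0.0523. ife-4 and ife-5 lay between -0.41 and 0.04. ifg-1, the gene for the scaffold eIF4G, was called in both tissues of WT (0.22 in hypodermis and 0.15 in intestine) and in neither tissue of baf-1(G12T) (-0.26 and 0.02). eif-6, whose product keeps free large subunits from joining, was called in baf-1(G12T) intestine only, at 0.76, and was negative elsewhere (-0.36 to -0.07).

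**Figure D2:**
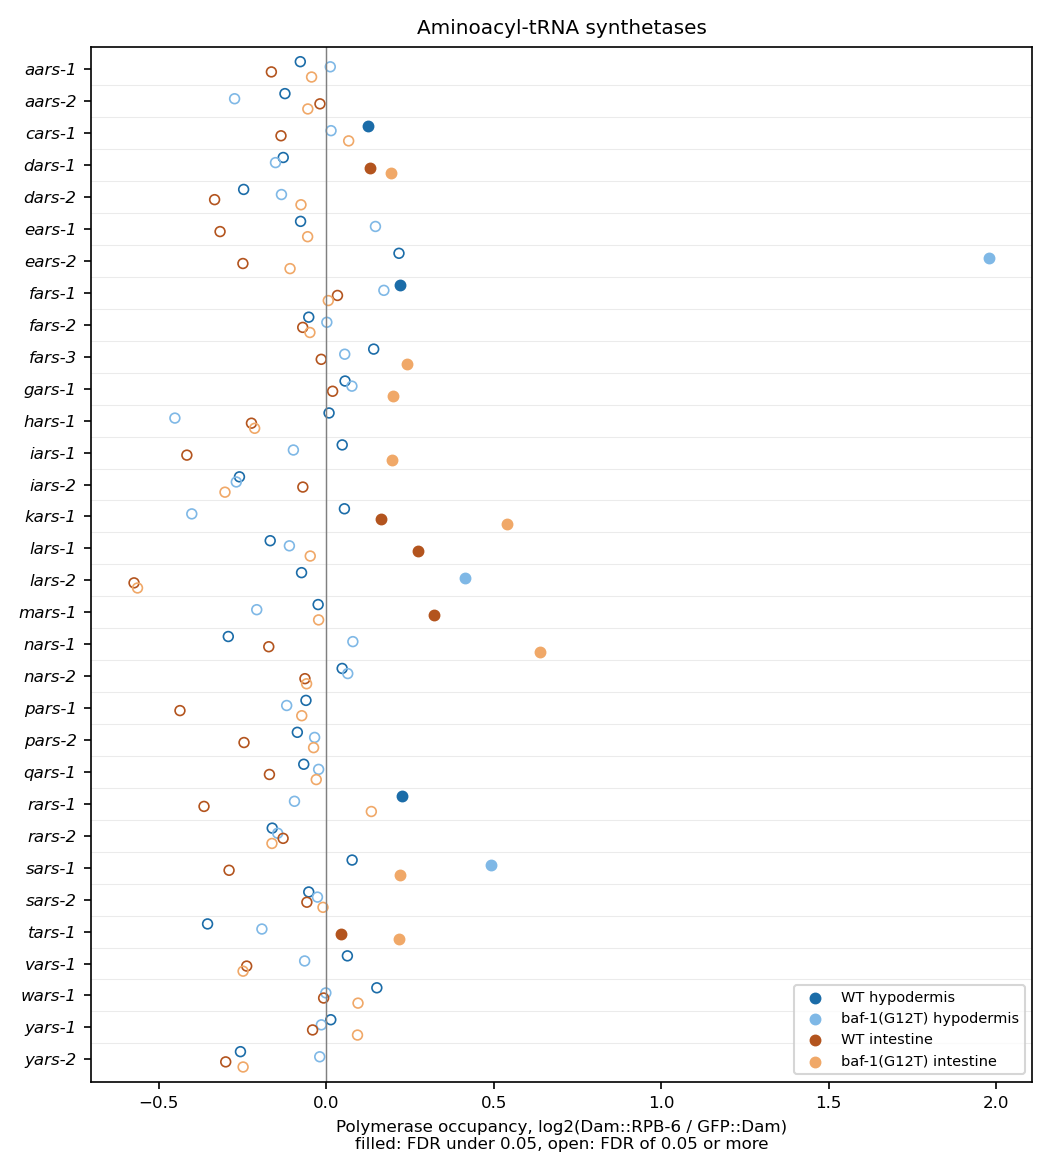
Polymerase occupancy of the 32 aminoacyl-tRNA synthetase genes, drawn as for the factors with log2(Dam::RPB-6 / GFP::Dam) on the horizontal axis and filled points for an FDR under 0.05. Most points lie between -0.4 and 0.4; the single point near 2 is ears-2 in baf-1(G12T) hypodermis at 1.98.

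The synthetases reached lower scores than the factors. In WT hypodermis the highest was rars-1 (arginine) at 0.23, called together with fars-1 (phenylalanine) at 0.22 and cars-1 (cysteine) at 0.12. These 3 were called in no other table. Of the 54 fragment ends of cars-1, 9 had an exact copy elsewhere in the genome. In WT intestine the calls were mars-1 (methionine, 0.32), lars-1 (leucine, 0.27), kars-1 (lysine, 0.16), dars-1 (aspartate, 0.13) and tars-1 (threonine, 0.04). The last score is small, with an FDR of 0.0478. Moreover, tars-1 lies wholly inside kel-1 on the other strand, and as the method has no strand its fragments belong to both.

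In baf-1(G12T) intestine kars-1, dars-1 and tars-1 were called again, at 0.54, 0.19 and 0.22, and nars-1 (asparagine, 0.64), fars-3 (0.24), sars-1 (serine, 0.22), gars-1 (glycine, 0.20) and iars-1 (isoleucine, 0.20) were called in addition. lars-1 and mars-1 were not called there (-0.05 and -0.02). All but iars-1 of these 8 belong to class II, so that 7 of the 17 class II genes and 1 of the 15 class I genes were called in that table, 41.2% and 6.67% beside the 10.5% of all named genes. In WT intestine the counts were 3 and 2 (17.6% and 13.3%, beside 7.94%). In hypodermis class II had 1 call (5.88%) and class I had 2 (13.3%) in either genotype, beside 9.81% of all named genes in WT and 7.53% in baf-1(G12T).

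In baf-1(G12T) hypodermis the calls were ears-2 (glutamate, 1.98), sars-1 (0.49) and lars-2 (0.41). RefSeq describes 10 of the 32 synthetases as cytoplasmic, 3 as mitochondrial (aars-1, ears-2 and rars-2) and gives no compartment for 19. The cytoplasmic ones had 2, 1, 3 and 5 calls in the order of the tables above and the mitochondrial ones 0, 1, 0 and 0, the 1 being ears-2. For the cytoplasmic ones these are 20%, 10%, 30% and 50%, beside 9.81%, 7.53%, 7.94% and 10.5% of all named genes. For the 3 mitochondrial ones the 1 call is 33.3%.

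The comparison of genotypes asked how occupancy of these genes differed in baf-1(G12T). A difference is given as the score in baf-1(G12T) minus that in WT, and differences over 1, which is 2-fold, were counted among genes called in at least 1 of the genotypes. In hypodermis 3 of 18 such members passed, 2 higher and 1 lower, where 7.65% of all expressed genes were over 1 higher and 3.30% over 1 lower, 10.9% in all. In intestine none of 24 members passed in either direction, where 2.87% of all expressed genes passed in each direction and 5.74% in either. A count of 3 among 18 is small, and no more is read from it than which genes they were.

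ears-2 (chrIV:388686-390468, minus strand) was the largest difference among the members. It scored 0.22 in WT and 1.98 in baf-1(G12T) hypodermis, a difference of 1.76, while intestine gave -0.25 in WT and -0.11 in baf-1(G12T). In WT hypodermis its FDR was 0.0558, just short of a call. Only 6 GATC fragments cover the gene. Its far end overlaps ssna-1 on the other strand by 31 bases without a GATC site, so that 1 fragment spans the ends of both genes, and ssna-1 scored -0.18 in WT and 2.28 in baf-1(G12T) hypodermis. The next genes beyond ssna-1 did not share the direction. T07A9.14 scored 0.38 in WT and 0.06 in baf-1(G12T), and the ribosomal protein gene rps-24 scored 0.74 and 0.04.

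eef-1A.2 was 1.34 higher in baf-1(G12T) than in WT hypodermis (2.89 against 1.55). No tabled gene overlaps it, and its nearest tabled neighbours, sek-1 and sul-3, scored between -0.02 and 0.08 in both hypodermal tables. eef-1A.1 was 0.48 higher in the same comparison (2.09 against 1.61), and F31E3.12, which overlaps its last 77 bases on the other strand, was also higher (1.50 against 0.67). eef-1G was 0.67 higher and eef-2 0.18 higher, so that the 4 elongation factors called in hypodermis all had the higher score in baf-1(G12T). Centring each table on its median turned none of these directions, but another scaling turned those of eef-1A.1 and eef-2. When the distributions of both genotypes were made equal (quantile normalization), the difference of eef-1A.2 shrank to 0.33, that of eef-1A.1 became -0.40 and that of eef-2 became -0.15, whereas eef-1G kept 0.54, ears-2 1.41 and eif-1.A -1.27.

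eif-1.A was the member past 2-fold in the other direction, with -0.27 in baf-1(G12T) against 0.84 in WT hypodermis, a difference of -1.11. It also rests on 6 GATC fragments. It overlaps no tabled gene, and the adjacent srw-95 differed by less, with -0.25 in WT and -0.35 in baf-1(G12T). The next largest lower scores in baf-1(G12T) hypodermis among called factors were ifg-1, by -0.48, and eif-2Balpha, by -0.47. Among called synthetases the largest was rars-1, from 0.23 to -0.09. Its partner on the other strand, cee-1, which overlaps 46 bases of it, scored 1.14 in WT and -0.17 in baf-1(G12T) hypodermis. sars-1 was 0.42 higher and lars-2 0.49 higher, and C47E12.13, which overlaps sars-1 by 82 bases, scored -0.08 in WT and 0.74 in baf-1(G12T) hypodermis.

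**Figure D3:**
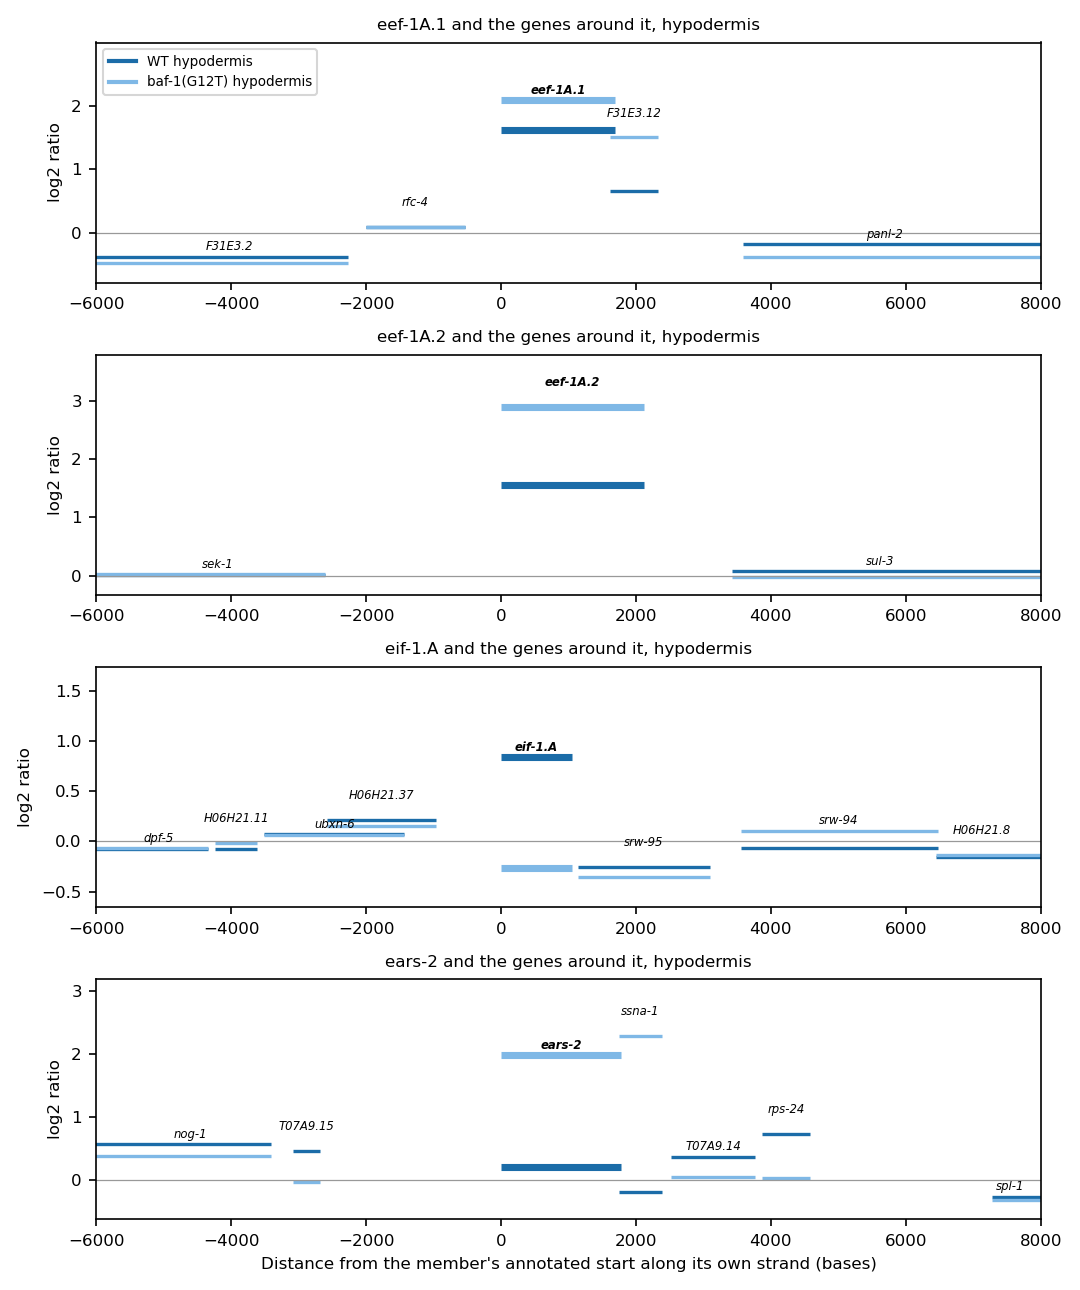
Hypodermal scores of eef-1A.1, eef-1A.2, eif-1.A and ears-2 (thick lines) and of the tabled genes around them (thin lines), drawn to scale over the span of each gene. The horizontal axis is the distance in bases from the annotated start along the strand of the named gene, the vertical axis is log2(Dam::RPB-6 / GFP::Dam), and dark and light blue are WT and baf-1(G12T). F31E3.12 beside eef-1A.1 and ssna-1 beside ears-2 are higher in baf-1(G12T), like the genes they overlap; eef-1A.2 and eif-1.A stand apart from the genes around them.

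In intestine the differences were smaller and the leading genes were others. eif-6 was 0.83 higher in baf-1(G12T) (0.76 against -0.07), nars-1 0.81 higher (0.64 against -0.17), eif-3.C 0.72 higher (0.49 against -0.23) and iars-1 0.61 higher (0.20 against -0.42). mpz-5, which overlaps 499 bases of iars-1 on the other strand, scored -0.41 in WT and 0.34 in baf-1(G12T) intestine. Among members called in intestine, sars-1, eif-2Balpha and eef-1G followed at 0.51, 0.49 and 0.46. The 2 lowest differences belonged to eef-1A.2 (-0.82, from 1.88 to 1.05) and eef-1A.1 (-0.77, from 2.45 to 1.68). eef-2 was 0.38 lower, eif-3.D 0.37 lower, mars-1 0.34 lower and lars-1 0.32 lower. Under quantile normalization the intestinal difference of eef-1A.1 was 0.08 and that of eef-1A.2 -0.23, so the direction of eef-1A.1 turned there too and that of eef-1A.2 did not.

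**Figure D4:**
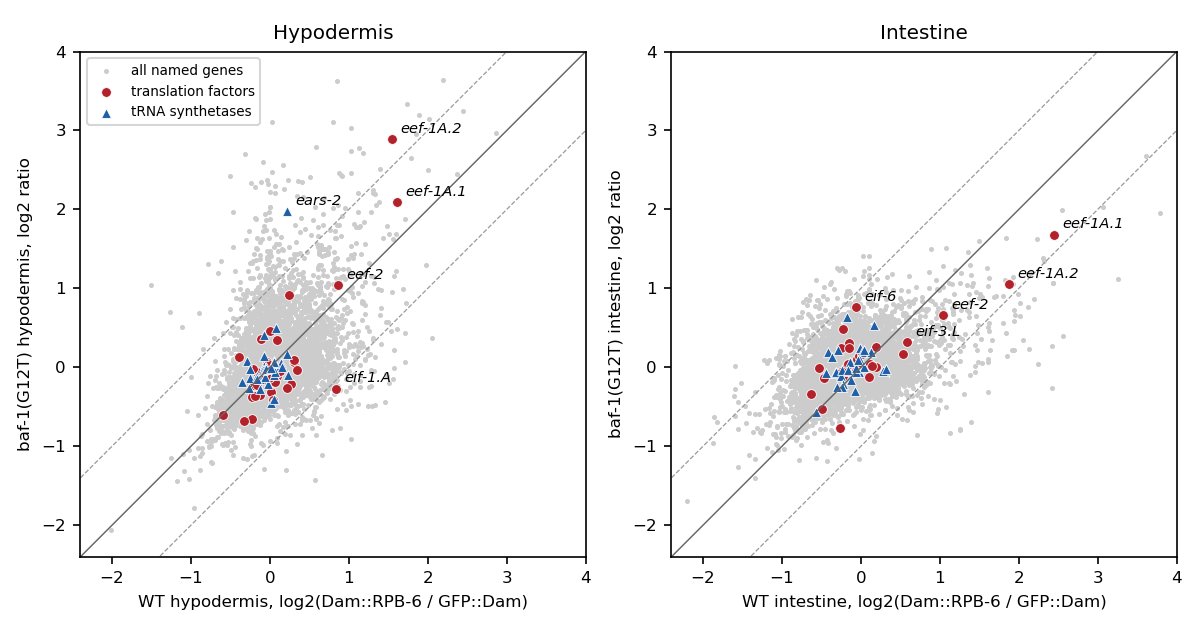
Score in baf-1(G12T) (vertical) against score in WT (horizontal), both log2(Dam::RPB-6 / GFP::Dam), in hypodermis and intestine. Grey points are all 19974 named genes, red circles the 36 factors and blue triangles the 32 synthetases; the solid line marks equality and the dashed lines a 2-fold difference. In hypodermis eef-1A.2 and ears-2 lie above the upper dashed line and eif-1.A below the lower one, while no called member lies outside the lines in intestine.

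As groups, the members differed little. The median difference of all 36 factors was -0.10 in hypodermis and 0.06 in intestine, and that of all 32 synthetases 0.02 and 0.13, beside 0.02 and 0.03 for all named genes. Among the factors called in at least 1 genotype the intestinal median had the other sign, -0.10, beside 0.15 for all genes so called. In hypodermis 13 factors and 17 synthetases scored higher in baf-1(G12T), that is 36.1% and 53.1%, where 60.3% of all named genes did. In intestine 25 factors and 25 synthetases scored higher, 69.4% and 78.1%, where 66.7% of all named genes did. By role, the 5 eIF2B genes were all higher in baf-1(G12T) intestine, by 0.0048 to 0.49, as were 9 of the 11 eIF3 genes and 15 of the 17 class II synthetases. These counts depend on scaling, since the median of all named genes was itself 0.047 higher there. After centring, eif-2Bbeta (-0.042) and eif-2Bdelta (-0.043) were lower instead, as were eif-3.F, eif-3.J, fars-2, hars-1 and nars-2. Under quantile normalization eif-2Bbeta had -0.033 and eif-2Bdelta -0.058. In hypodermis 3 of the 5 eIF2B and 7 of the 11 eIF3 genes were lower.

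**Figure D5:**
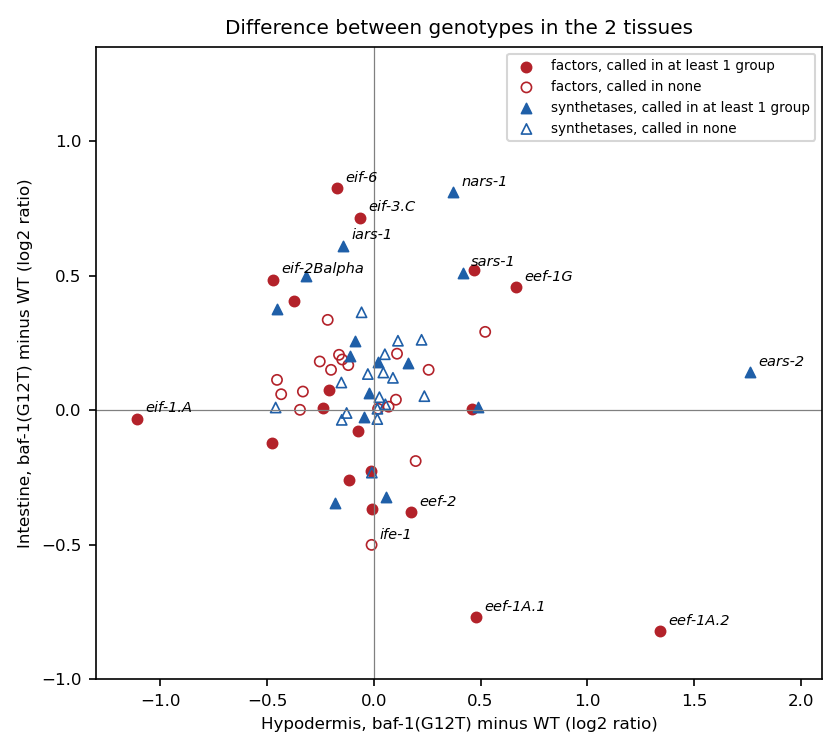
Difference between genotypes, baf-1(G12T) minus WT in log2 units, in hypodermis (horizontal) and intestine (vertical) for the 68 members. Circles are factors and triangles synthetases, filled where the gene was called in at least 1 table. ears-2 lies far right at 1.76 with an intestinal difference of 0.14, and eef-1A.1 and eef-1A.2 lie at the lower right, higher in hypodermis and lower in intestine.

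Between the tissues of WT, 354 of 3055 expressed genes (11.6%) differed by over 1, with 7.63% higher in hypodermis and 3.96% higher in intestine. Among 22 members called in at least 1 WT tissue, 1 passed, eif-1.A, at 1.33 higher in hypodermis. rars-1 (0.59) and eif-2Balpha (0.51) were the next on that side. On the intestinal side the largest were eef-1A.1 (-0.84), eif-3.D (-0.66) and eif-3.L (-0.60). In baf-1(G12T), where 9.53% of 3179 expressed genes were over 1 higher in hypodermis and 3.02% over 1 higher in intestine (12.6% in all), 3 of 23 members passed. These were ears-2 (2.09) and eef-1A.2 (1.84), higher in hypodermis, and eif-6 (-1.12), higher in intestine. kars-1 was 0.94 higher in intestine and lars-2, which was not called in intestine, 0.98 higher in hypodermis. The median tissue difference, hypodermis minus intestine, was 0.07 for factors and 0.09 for synthetases in WT and -0.09 and -0.05 in baf-1(G12T), beside 0.02 and 0.01 for all named genes. Among members called in at least 1 of the tissues, the median of the synthetases in WT had the other sign, -0.18, beside 0.19 for all genes so called. Of the 10 cytoplasmic synthetases 5 scored higher in hypodermis in WT and 1 in baf-1(G12T), where 64.1% and 56.3% of all named genes did.

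The number of GATC fragments sets how many values stand behind a score. The factors had a median of 9.5 fragments and the synthetases 14, beside 7 for all named genes. Of all expressed genes with 5 to 8 fragments, 15.4% differed by over 1 between genotypes in hypodermis, and with 17 or more fragments 1.31% did. ears-2 and eif-1.A are in the first of these classes, and eef-1A.2 has 11 fragments. Calls run the other way, since 18.6% of genes with 17 or more fragments were called in WT hypodermis and 8.55% of those with 5 to 8, and in WT intestine 15.7% and 6.39%. In baf-1(G12T) these shares were 13.1% and 6.77% in hypodermis and 20.5% and 8.46% in intestine. Of the 7 factors with 17 or more fragments 3, 1, 5 and 4 were called in WT hypodermis, baf-1(G12T) hypodermis, WT intestine and baf-1(G12T) intestine, and of the 16 with 5 to 8 fragments 5, 2, 0 and 4. Of the 11 synthetases with 17 or more fragments 1, 1, 2 and 3 were called in that order (9.09%, 9.09%, 18.2% and 27.3%). Of the 16 synthetases with 9 to 16 fragments 2, 1, 3 and 4 were called, and of the 5 with 5 to 8 fragments 0, 1, 0 and 1. All named genes with 9 to 16 fragments were called at 11.85%, 9.12%, 9.9% and 13.8%.

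Other genes of translation were taken from a list of initiation, elongation, release and control genes with other names, of which 29 were in the tables. Of these 6, 4, 7 and 7 were called in WT hypodermis, baf-1(G12T) hypodermis, WT intestine and baf-1(G12T) intestine, that is 20.7%, 13.8%, 24.1% and 24.1%, beside 9.81%, 7.53%, 7.94% and 10.5% of all named genes. larp-1, which encodes a La-related RNA-binding protein, and ncl-1, a repressor of ribosome production, were called in all 4 tables, at 0.12 to 0.33 and 0.25 to 0.49. inf-1, the gene for the helicase eIF4A, was the highest of this list in WT, with 0.82 in hypodermis and 1.49 in intestine. It was lower in baf-1(G12T) in both tissues, at -0.19 and 0.54, which are differences of -1.001 and -0.95 and keep their sign under quantile normalization (-1.16 and -0.69). iff-2, which encodes eIF5A, scored 0.02 in WT and 0.97 in baf-1(G12T) hypodermis. In intestine raga-1, a GTPase of the TOR pathway, scored -0.73 in WT and 0.33 in baf-1(G12T). Its difference of 1.06 was the one over 1 there, and under quantile normalization it was 0.92. Of the 8 expressed genes of the list in hypodermis inf-1 alone passed (12.5%, beside 10.9% of all expressed genes). Of the 9 in intestine raga-1 alone did (11.1%, beside 5.74%).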

How the data were processed

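The authors fused Dam to RPB-6 or GFP, sequenced DamID fragments, kept reads with the adapter at GATC sites, and made log2 Dam::RPB-6 to GFP::Dam ratios with damidseq_pipeline and gene scores with polii.gene.call. The labels name build ce11. The 4 deposited tables hold, per gene, the log2 score, an FDR (an adjusted p-value) and the number of GATC fragments. Of 19985 rows in each, 11 without a gene name were left out. Tables were assigned to groups by strain name.

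Computed here (Python 3.11.15, pandas 2.3.3) were calls (FDR under 0.05), differences of scores, medians and counts. No test was run, since each table has 1 value per gene. Counting was checked on simulated tables. Positions came from Ensembl release 115 (WBcel235), and GATC sites and sequences from the RefSeq WBcel235 genome. The number of sites plus 1 equalled the deposited fragment number for 19280 of 19406 placed genes and 67 of 68 members. No protein sequences were used here.

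The members and gene lists were chosen with earlier results of these data known. Genes were named if past 2-fold between genotypes, called in all 4 tables, among the 3 highest scores or 3 largest differences of their class, or of the ife, ifg or eef-1A families. Any other gene was named after its values had been looked at. Alternatives were other FDR, score, difference and fragment limits, centring and quantile normalization.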

Additional observations from a re-analysis of the deposited data

Results flagged for a closer look

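For 2 members the difference between genotypes had opposite directions in the tissues and the differences lay over 1 apart. eef-1A.2 scored 1.34 higher in baf-1(G12T) than in WT hypodermis and -0.82 in the same comparison in intestine, so that the intestinal difference minus the hypodermal one was -2.16. For eef-1A.1 the values were 0.48 and -0.77, a gap of -1.25. With 1 value per gene and table the gap could not be tested. After quantile normalization eef-1A.2 kept both directions (0.33 and -0.23), and eef-1A.1 had -0.40 in hypodermis and 0.08 in intestine.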

How the results depend on the processing

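No paired analysis was possible because each table holds 1 value per gene, and for the same reason no replicate could be left out. Over 100 combinations of a result and an alternative, 81 counts stayed within 1.5 times, or medians within 0.1, of the reported value, 17 moved further and 2, both medians, moved further and turned in sign. Another 2 medians turned in sign within 0.1. An FDR limit of 0.01 gave 6 factors (10 reported) and 0 synthetases (3) in WT hypodermis, 2 synthetases (5) in WT intestine, and 7 factors (11) and 5 synthetases (8) in baf-1(G12T) intestine. An FDR limit of 0.1 gave 5 synthetases in WT hypodermis. A score above 0.2 as a further condition left 5 factors and 2 synthetases in WT intestine and 5 synthetases in baf-1(G12T) intestine. Of the factors past 2-fold in hypodermis (2), 1 was left under quantile normalization, 1 among genes called in both genotypes and 0 at a limit of 1.5, and of the synthetases (1), 0 were called in both genotypes. A limit of 0.58 gave 4 factors and 2 synthetases in intestine (0 of each reported). Among expressed members only, the median difference between genotypes was -0.10 for factors in intestine (turned from 0.06) and 0.18 for synthetases in hypodermis. The median tissue difference of expressed synthetases was -0.18 in WT (turned from 0.09) and -0.24 in baf-1(G12T). Over all expressed genes the same medians were 0.15, -0.06, 0.19 and -0.10, in that order. The cause of the shifts under these alternatives, beyond the smaller or larger sets of genes, was not tested. Read depth is not in these tables and was not used here, so how it limits single scores was not assessed.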
